A study of Mus musculus with 31 samples.

Results

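The genes described here encode the proteins of the cytosolic ribosome in mouse gastrocnemius, the large calf muscle, measured by RNA sequencing of poly(A) RNA. They were chosen by symbol (Rpl or Rps followed by a number, the stalk genes Rplp0 to Rplp2, and Rpsa, without the S6 kinases), by a count of at least 10 in at least 3 libraries, and by position outside a window around the deleted gene on chromosome 4. Of 92 protein-coding genes with such a symbol, 86 were kept out of 14112 genes that passed the count filter and 39017 in the files. Rpl11 was left out because it lies in the window (124315120 to 144329629, mm10), and Rpl10l, Rpl24, Rpl36-ps4, Rpl39l and Rpl9-ps1 were left out because their highest count in any library was 6 or less. The 86 comprise 31 genes of the small subunit, 44 of the large subunit, 5 paralogs (Rpl3l, Rpl22l1, Rpl7l1, Rpl36al and Rps27l), 5 genes with retrocopy symbols, and Rps19bp1, whose product binds the ribosomal protein RPS19 and is not itself a part of the ribosome.

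The study compared wild-type mice with mice labelled MuRF1 -/-, which lack the muscle ubiquitin ligase encoded by Trim63, in both sexes and on 2 diets. All mice were weaned onto chow, part of them were moved at 8 weeks of age to a high-fat diet (45% fat from lard), and muscle was taken at 30 weeks. Each of the 8 groups held 4 animals except male knockout high fat and female knockout high fat, which held 3. The labels name neither the strain nor the allele, and no batch or date.

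A ribosome is built from a small subunit, which reads the messenger RNA, and a large subunit, which joins amino acids. Many messenger RNAs of its protein genes begin with a C followed by a run of pyrimidines, a feature through which mTORC1 signalling controls their translation. Striated muscle differs in one subunit: it makes Rpl3l, a muscle form of the large-subunit protein RPL3, along with or in place of Rpl3 itself.

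Library totals ran from 9342028 to 14919379 counts, and Trim63 lay between 109 and 254 CPM (counts scaled to a common library size) in the 16 wild-type libraries and between 0.469 and 6.24 CPM in the 14 knockout libraries. For 19 libraries the title and the description name different animals, so libraries were grouped by the described animal, which changed the group of 4 libraries and left 1 library, whose animal is in no title, without a group. The Y-linked gene Ddx3y was at 30.3 CPM or more in all 15 male libraries and at 0.757 CPM or less in all 15 female libraries. Krt10, a skin keratin, exceeded 10 CPM in 3 libraries, all of females on chow (wild type 3, knockout 1 and knockout 3). The sample is whole muscle, in which fewer cells of a type and less RNA per cell cannot be told apart. All 12 skeletal muscle fibre markers were detected and their summed level was 139800 CPM or more in every library, the highest of the marker sums.

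The 86 genes together took a median of 1.40% of a library's counts, with a range from 1.17% to 2.17% over the 30 grouped libraries and 95% Wilson intervals no wider than 0.00842 percentage points to either side, which cover counting error only. By group the share was 1.44% ± 0.207 in male wild type chow, 1.49% ± 0.0546 in male knockout chow, 1.30% ± 0.190 in male wild type high fat and 1.28% ± 0.0385 in male knockout high fat (SD, n = 4, 4, 4 and 3). In females it was 1.42% ± 0.0983 in wild type chow, 1.41% ± 0.0799 in knockout chow, 1.55% ± 0.232 in wild type high fat and 1.63% ± 0.466 in knockout high fat (SD, n = 4, 4, 4 and 3). The order of the groups is therefore opposite in the sexes: chow above high fat in males, high fat above chow in females. The high-fat spread in females comes from 2 libraries, knockout high fat 2 at 2.17% and wild type high fat 4 at 1.87%, and the other 5 lay between 1.33% and 1.56%, within the range of the other groups.

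**Figure D1:**
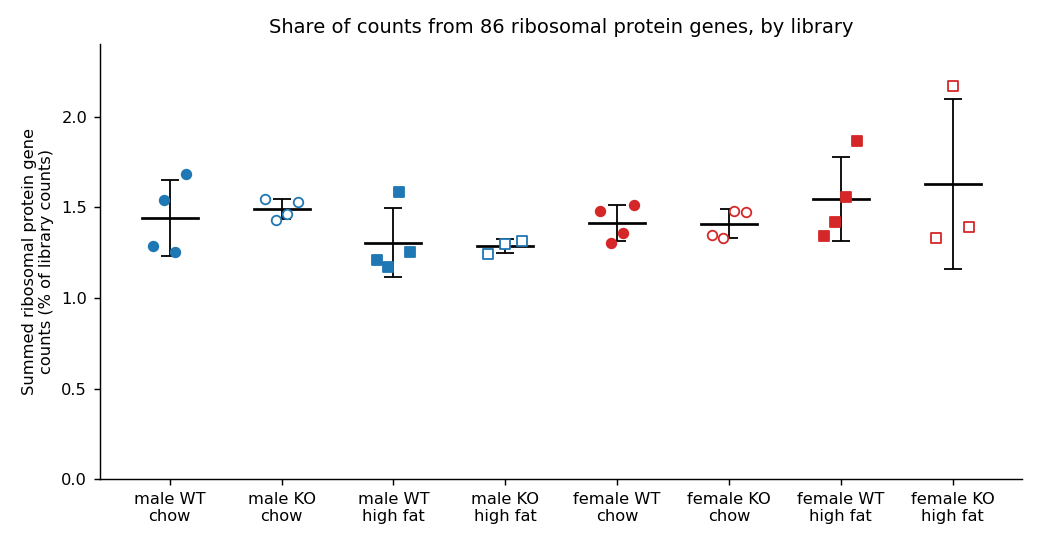
Summed counts of the 86 genes as a percentage of all counts in each library (vertical axis), by group (horizontal axis); circles are chow, squares high fat, filled symbols wild type, open symbols knockout, and bars give the mean and SD. Female knockout high fat 2 stands highest at 2.17%, and the male high-fat libraries are mostly below the male chow libraries.

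The genes differed widely in level but moved together from animal to animal. Per kilobase of exon (RPKM, mean over libraries), the stalk gene Rplp1 stood highest at 652, followed by the stalk gene Rplp0 at 452 and the small-subunit gene Rps3a1 at 401. The lowest were Rpl10-ps3 at 1.14, Rpl36a-ps1 at 3.15 and Rps19bp1 at 6.15. Median levels were 88.8 RPKM in the small subunit, 76.6 in the large subunit, 54.7 in the paralogs and 9.46 in the retrocopy symbols. The exon length used is the union over all annotated transcripts of a gene, 499 bases for Rplp1 and 6256 for Rps24 (43.5 RPKM). Levels and ranks per kilobase therefore also depend on the annotation. The log2 CPM of a gene correlated with the mean of the other 85 genes at a median of r = 0.934 over the 30 libraries, above 0.8 for 75 genes and below 0.5 for 3. Those 3 were Rpl3 (r = -0.257), Rpl10-ps3 (r = 0.395) and Rpl22l1 (r = 0.414). These correlations describe libraries that share a scaling and a depth, so they are not a test. Outside the 86, the genes closest to their mean were Hint1 (r = 0.971), Mrpl23 (0.964), Pfdn5 (0.958), Uqcc2 (0.956) and Cops9 (0.955), of 12430 genes ranked over 30 libraries.

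Between animals of a group the spread of log2 CPM had a median SD of 0.245 over the 86 genes, against 0.173 over 7362 genes tested with a level above 10 CPM. It was largest in Rpl36a-ps1 (0.411), Rpl22l1 (0.363) and Rpl10-ps3 (0.349), and smallest in Rpl7l1 (0.115), Rpl15 (0.158) and Rpl3 (0.160). Rpl3, a large-subunit protein near the peptidyl transferase centre, thus had a small spread and did not follow the other genes. The common spread ran with annotated exon length. The slope of a library's deviations on log2 exon length was taken over genes other than the 86. This slope was among its most negative in the 4 libraries with the highest shares. It was -0.203 in female knockout high fat 2, -0.119 in female wild type high fat 4, -0.0861 in male wild type high fat 3 and -0.0815 in male wild type chow 4. In male knockout chow 2 it was -0.0969 with a share of 1.43%. A length slope below 0 means that genes of short annotated exon length are over-represented in that library. Annotated exon length can lie far above the coding length, as for Rps24 (6256 and 399 bases). The slope on GC content, per 10 percentage points, also differed between groups. Its mean was 0.252 ± 0.274 in female wild type high fat and 0.0982 ± 0.0318 in female knockout high fat (SD, n = 4 and 3). In female chow it was -0.0767 ± 0.0827 in wild type and -0.126 ± 0.0273 in knockout (SD, n = 4 and 4). The male group means ran from -0.115 to 0.0125, and the highest library was female wild type high fat 3 at 0.637. The results below are therefore also given from a fit with offsets for length and GC content.

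**Figure D2:**
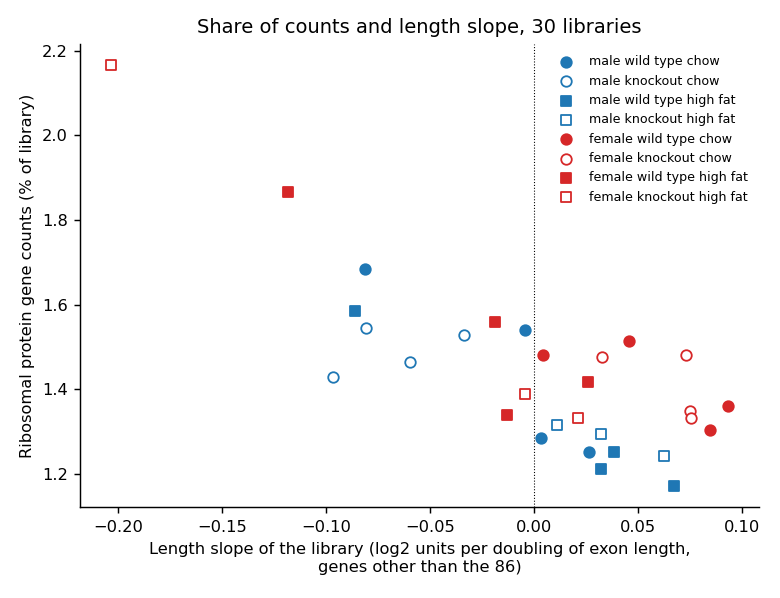
Share of counts from the 86 genes (vertical axis, percent) against the length slope of the library (horizontal axis, log2 units per doubling of exon length), 1 point for each of 30 libraries. The points run from upper left to lower right, with female knockout high fat 2 at -0.203 and 2.17%.

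Start-site sequences are shown because the pyrimidine run marks this family. Promoter windows of 300 bases from RefSeq (GRCm38.p6) were found for 62 of the 86 genes. A C at the annotated start followed by 4 bases that are each C or T was present in 14 of those 62 genes (22.6%), against 3.01% of all 27025 genes in the table. The 7 letters CCGGAAG, the core of ETS-family sites, stood on either strand of the 300 bases in 24 of 62 genes (38.7%), against 9.93% of all genes. A match is only a match of letters, and an annotated start a few bases off would hide a run. Below, 10 bases before and 20 from the start are given 5′ to 3′, with the run in capitals. The first 5 carry a run, among them the gene with the smallest p in the sex-by-diet comparison (Rplp2), Rps6, the target of the S6 kinases, and the pair Rps27 and Rps27rt. The last 3 carry none.
Rplp2 (chr7:141447641-141447670, plus strand): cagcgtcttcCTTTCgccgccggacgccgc
Rpl28 (chr7:4792955-4792984, plus strand): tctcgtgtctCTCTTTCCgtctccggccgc
Rps6 (chr4:86857348-86857377, minus strand): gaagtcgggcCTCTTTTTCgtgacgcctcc
Rps27 (chr3:90213629-90213658, minus strand): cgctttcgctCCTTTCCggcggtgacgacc
Rps27rt (chr9:114982720-114982749, minus strand): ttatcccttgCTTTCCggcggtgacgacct
Rpl3l (chr17:24727816-24727845, plus strand): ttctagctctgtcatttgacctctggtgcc
Rplp0 (chr5:115559457-115559486, plus strand): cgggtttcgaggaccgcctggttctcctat
Rps19bp1 (chr15:80264287-80264316, minus strand): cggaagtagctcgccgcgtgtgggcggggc

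Counts of these genes can be shared with copies. Of the 86, 74 had at least 1 other annotated gene or pseudogene whose transcript matched 90% or more of their coding sequence at 95% identity or more, with a median of 4 such copies and 56 for Rpl21. The copies held under 5% of the joint counts for 54 genes and over 50% for 6. Those 6 were Rpl21 (66.4%) and the 5 retrocopy symbols Rps12-ps3 (94.7%), Rps27rt (95.2%), Rpl9-ps6 (97.0%), Rpl36a-ps1 (97.3%) and Rpl10-ps3 (99.7%), so the values of these 6 are uncertain. How reads matching both a gene and a copy were counted is not given, so a low copy share does not settle the level of the other genes. The median level was 104.3 RPKM in the 12 genes without a copy and 67.7 in the 42 with 5 or more, and the reason was not tested. Rpl3l, Rps19bp1 and Rpl8 had no copy, and copies held 7.55% for Rplp2 and 8.39% for Rpl3.

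The question of the sex-by-diet comparison was whether the diet acted alike in both sexes: it is the high-fat minus chow difference in females minus the same difference in males, averaged over genotype. Most ribosomal protein genes had a higher value in it, meaning a rise with high fat in females, a fall in males, or both. Of the 86 genes, 72 were higher and 1 lower (edgeR quasi-likelihood test, adjusted p under 0.05), where 22.2% of all tested genes were higher and 22.8% lower. The median was 0.55 over the 86 genes and -0.02 over all genes tested. In the small subunit 28 of 31 were higher (median 0.57) and in the large subunit 39 of 44 (median 0.54), against 3 of 5 paralogs and 1 of 5 retrocopy symbols. The differences called higher ran from 0.33 (Rpl4) to 1.00 (Rps19bp1).

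Rplp2, whose product forms the flexible stalk that recruits translation factors, had the smallest p. Its TMM-scaled CPM were 145, 169, 132 and 217 in wild-type males on chow, 213, 210, 185 and 188 in male knockout chow, 120, 135, 185 and 138 in male wild type high fat and 122, 139 and 144 in male knockout high fat. In females they were 131, 118, 115 and 138 in wild type chow, 112, 124, 119 and 130 in knockout chow, 142, 146, 182 and 222 in wild type high fat and 143, 282 and 156 in knockout high fat. All 7 female high-fat libraries lay above all 8 female chow libraries. The male knockouts on high fat all lay below those on chow, while the male wild-type groups did overlap. The sex-by-diet difference of Rplp2 was 0.95 ± 0.18 on the log2 scale (SE, edgeR adjusted p = 0.000138).

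The other stalk genes were also higher. Rplp1 differed by 0.74 ± 0.16 (edgeR adjusted p = 0.000532) and Rplp0, the stalk base, by 0.60 ± 0.13 (edgeR adjusted p = 0.000462). Rplp0 lay at 621 to 809 CPM in wild-type males on chow, 760 to 884 in male knockout chow, 621 to 804 in male wild type high fat and 616 to 639 in male knockout high fat. In females it lay at 640 to 793 in wild type chow, 653 to 726 in knockout chow, 784 to 1065 in wild type high fat and 757 to 1155 in knockout high fat. The female wild-type ranges overlapped by a single library on each side, and the female knockout ranges did not overlap.

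Among the other large-subunit genes, Rpl28 differed by 0.92 ± 0.18, Rpl29 by 0.81 ± 0.16, Rpl18 by 0.78 ± 0.17, Rpl37 by 0.77 ± 0.16 and Rpl23a by 0.56 ± 0.12 (edgeR adjusted p from 0.000209 to 0.000459). Rps28, a small-subunit protein near the exit of the messenger RNA, differed by 0.88 ± 0.19 (edgeR adjusted p = 0.000465). Rps6 differed by 0.47 ± 0.15 and Rpsa, which also serves as a laminin receptor precursor, by 0.53 ± 0.15. Rps19bp1, a SIRT1 regulator as well as a partner of RPS19, had the largest value at 1.00 ± 0.20 (edgeR adjusted p = 0.000226), from 4.26 to 6.63 CPM in females on chow and 6.21 to 10.8 CPM in females on high fat. Its female diets overlapped, and its level is among the lowest of the 86. Of the paralogs, Rpl36al differed by 0.69 ± 0.18, Rps27l by 0.56 ± 0.16 and Rpl3l by 0.49 ± 0.12. Rpl7l1 had 0.08 ± 0.10 and Rpl22l1 0.04 ± 0.26, neither past the threshold, while their partners Rpl7 and Rpl22 had 0.51 ± 0.15 (called) and 0.36 ± 0.16 (not called).

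The single gene with a lower value was Rpl3, at -0.45 ± 0.12 (edgeR adjusted p = 0.0026). It kept its sign and its call in each of the 43 alternative fits run for this comparison, with values from -0.65 to -0.39.

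**Figure D3:**
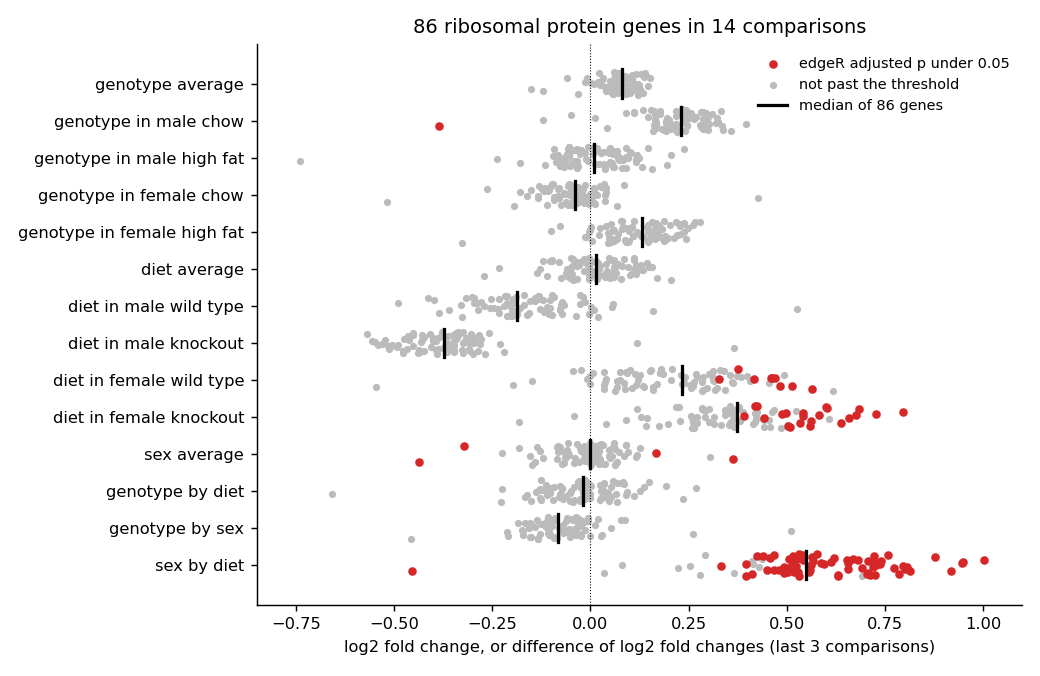
Log2 fold changes of the 86 genes (horizontal axis; differences of fold changes in the last 3 comparisons) in 14 comparisons (vertical axis); red points passed edgeR adjusted p under 0.05, grey points did not, and black lines mark medians. Nearly all red points lie in the sex-by-diet comparison and in the female diet comparisons, and Rpl3 is the red point at -0.45.

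Adjusting for annotated exon length and GC content reduced the sex-by-diet difference of the family. With an offset for each library fitted on genes other than the 86, 51 genes were higher and 1 lower, where 23.5% of all genes were higher and 15.1% lower. Of the 72 genes called higher without the offsets, 46 were still called higher, and the median went from 0.55 to 0.36, with all tested genes at 0.07. Rplp2 remained at 0.66 (edgeR adjusted p = 0.000832) and Rps19bp1 at 0.46 (edgeR adjusted p = 0.0196), whereas the stalk gene Rplp1 went to 0.15 (edgeR adjusted p = 0.224), Rpl3l to 0.11 (edgeR adjusted p = 0.375) and Rpl29 to 0.18 (edgeR adjusted p = 0.157). Rps6 went to -0.02 (edgeR adjusted p = 0.915), and Rpl3 stood at -0.53. When libraries were scaled by their totals without TMM, 45 genes were higher and 1 lower, where 11.5% of all genes were higher and 33.3% lower. The median was then -0.22 over all tested genes and 0.34 over the 86. Without female knockout high fat 2, 55 genes were higher and 1 lower, and the median was 0.42. The share of all genes called in that fit is not given.

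**Figure D4:**
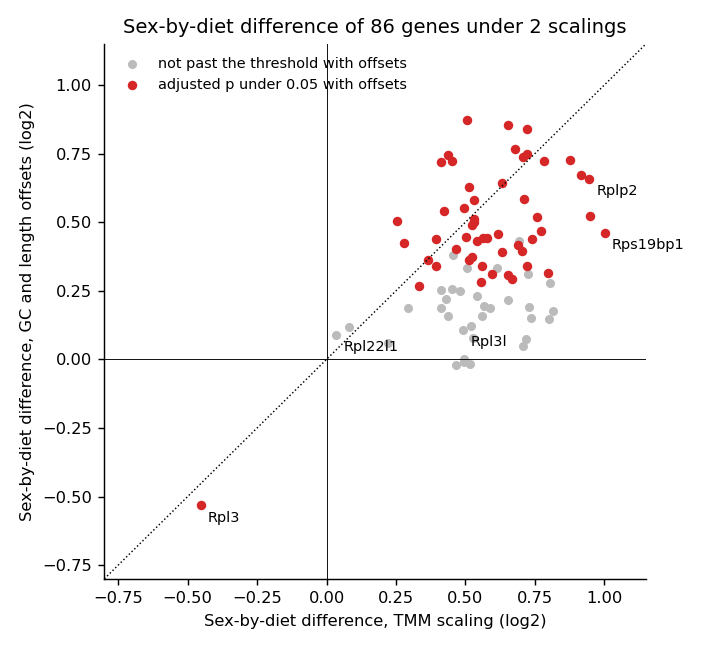
Sex-by-diet difference of each of the 86 genes with TMM scaling (horizontal axis, log2) and with GC and length offsets (vertical axis, log2); red points passed edgeR adjusted p under 0.05 with the offsets, and the dotted line marks equal values. Most points lie below the line and above 0, and Rpl3 lies apart at the lower left.

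Markers of other cell types moved in the same comparison, in the opposite direction. Fibroblast and fibro-adipogenic markers were lower for 7 of 11 (median -0.74), macrophage markers for 8 of 10 (-1.06), adipocyte markers for 5 of 6 (-1.61), Schwann cell markers for 4 of 6 (-0.88), tendon markers for 4 of 5 (-2.09) and erythroid markers for 3 of 5 (-1.22). Skeletal muscle fibre markers were higher for 9 of 12 (median 0.59), and endothelial markers were higher for 1 and lower for 2 of 7. Of the satellite cell markers 1 of 5 was higher and 1 lower, 0 of 6 keratinocyte markers passed, and 1 of 9 lymphocyte markers was measured and did not pass. The summed fibroblast markers ran from 2594 to 3956 CPM in the 8 female chow libraries and from 1204 to 2834 CPM in the 7 female high-fat libraries, with no listed marker at 0 in every library. The part of cell composition in the ribosomal protein values was not tested.

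Apart from the mitochondrial ribosomal protein genes, the rest of the translation machinery, from lists chosen by function, moved less evenly than the 86 genes. The counts of these lists are to be read against the 22.2% of all tested genes that were higher and the 22.8% that were lower. Of 45 genes listed as translation factors 21 were higher and 4 lower in the sex-by-diet comparison (median 0.24). Among those higher were the muscle form of elongation factor 1A, Eef1a2 (0.94 ± 0.11), Eif3f (1.00 ± 0.16) and Eif3k (0.76 ± 0.14). Naca (0.73 ± 0.11), counted in this list, is not a translation factor in the strict sense. Eef1a1, the form made in most other cells, was lower at -0.77 ± 0.14. The Eef1a pair thus had opposite signs, as the Rpl3 pair did, and kept them under each of 4 other scalings. Of 51 ribosome assembly genes 17 were higher and 6 lower (median 0.13), with Bysl at 0.61 ± 0.10 and Nhp2 at 0.80 ± 0.18 against the AAA-ATPase genes Mdn1 at -0.84 ± 0.15 and Nvl at -0.78 ± 0.15. For the polymerase and mTORC1 lists that follow, the share of genes higher is near that background. Of 34 genes for RNA polymerase I and III and their factors 8 were higher and 1 lower (median 0.20), with Polr2l at 0.91 ± 0.14 and Polr3gl at 0.75 ± 0.12. Maf1, a repressor of RNA polymerase III, had 0.57 ± 0.12. Of 31 mTORC1 components and regulators 7 were higher and 6 lower (median 0.06): the S6 kinase gene Rps6kb2 (0.74 ± 0.11) and Ddit4l (0.61 ± 0.13) higher, Rps6ka3 (-0.83 ± 0.15) and the sestrin gene Sesn3 (-1.76 ± 0.32) lower. Scaled by library totals, the counts became 12 and 14 for translation factors, 6 and 14 for assembly, 6 and 5 for the polymerases and 2 and 9 for mTORC1, where 11.5% of all genes were higher and 33.3% lower, so the balance within these lists depends on the scaling. Fau and Rack1, which encode ribosomal components under other names, were higher (0.79 ± 0.18 and 0.32 ± 0.13). Of the 3 measured genes of this kind, 1 was higher with RLE size factors, on library totals or with length and GC offsets. With TMM computed without the 86 and mitochondrial genes, 2 were higher. Mitochondrial ribosomal protein genes are transcribed in the nucleus for the separate ribosome of mitochondria. They were higher for 60 of 76 and lower for 0 (median 0.50), where 72 of the 86 cytosolic genes were higher. On library totals 36 were higher and 2 lower (median 0.30), against 45 and 1 of the 86 (median 0.34). With length and GC offsets 52 were higher and 0 lower (median 0.38), against 51 and 1 of the 86 (median 0.36).

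Within females the values were mostly above 0 in both genotypes, and fewer genes were called. In wild-type females 9 of the 86 genes rose on high fat and 0 fell, where 13.0% of all tested genes rose and 12.0% fell, and the median was 0.23. They were Rpl18 (0.56 ± 0.16), Rpl29 (0.51 ± 0.16), Rpl28 (0.48 ± 0.17), Rplp1 (0.47 ± 0.15), Rps10 (0.46 ± 0.15), Rplp2 (0.46 ± 0.17), Rpl8 (0.42 ± 0.16), Rps9 (0.38 ± 0.14) and Rplp0 (0.33 ± 0.12), with edgeR adjusted p from 0.0112 to 0.0497. The share called is near the background. The number called was 0 without female wild type high fat 3, the library with the highest GC slope. It was 1 without female wild type chow 3, 2 without female wild type chow 2 and 3 without female wild type high fat 4. The count was 16 without female wild type high fat 1 and 17 without female knockout high fat 2. It was also 0 without the 3 libraries high in Krt10 and 0 in the 26 libraries whose title and description give 1 group. As the share of all genes called in these fits is not given, the counts show only how the result depends on the libraries. With length and GC offsets 1 gene rose and 1 fell, where 6.06% of all genes rose and 4.39% fell. In this comparison macrophage markers fell for 6 of 10, fibroblast markers for 3 of 11 and Schwann cell markers for 4 of 6, and muscle fibre markers rose for 3 of 12. Their part in the result was not tested.

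In knockout females 22 genes rose and 0 fell, where 10.6% of all tested genes rose and 8.57% fell, with a median of 0.37. The 10 of smallest p were Rps19bp1 (0.80 ± 0.21), Rplp2 (0.68 ± 0.18), Rps28 (0.68 ± 0.19), Rplp1 (0.58 ± 0.16), Rpl3l (0.44 ± 0.13), Rpl28 (0.64 ± 0.18), the retrocopy symbol Rps12-ps3 (0.73 ± 0.22), Rpl18 (0.56 ± 0.17), Rpl8 (0.54 ± 0.17) and Rpl29 (0.53 ± 0.17), with edgeR adjusted p from 0.0102 to 0.0254. This count rests on 1 library: without female knockout high fat 2, the library with the highest share and the steepest length slope, 0 genes were called and the median was 0.06. The count was 49 without female knockout high fat 1, 37 without knockout high fat 3, 6, 9 and 7 without knockout chow 1, 2 and 3, and 0 without the 3 libraries high in Krt10. For these fits the share of all genes called is not given, so the counts show only how the result depends on the libraries. With length and GC offsets 2 genes rose and 0 fell, where 8.18% of all genes rose and 4.1% fell. Muscle fibre markers rose for 7 of 12 and tendon markers fell for 3 of 5 in this comparison, and their part in it was not tested. Female knockout chow 1 and 3 are also the knockout libraries with Krt10 above 10 CPM.

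Within males the values went the other way. In knockout males the median was -0.37 and 84 of 86 genes had a value below 0, but 0 passed the edgeR test of the 8-group fit, where 5.62% of all tested genes were called. At an unadjusted p under 0.05 there were 53, and DESeq2 called 1 higher and 5 lower, where it called 5.21% of all genes higher and 3.51% lower. In the 8-group fit the count was 18 without female knockout high fat 2, 5 without male wild type high fat 3, 4 without male knockout chow 4, 3 without male wild type chow 4, and 1 without female wild type high fat 4 or female knockout high fat 1. The share of all genes called in these reduced fits is not given. A fit on the 2 male knockout groups alone called 78 lower and 0 higher, where 9.47% of all tested genes were lower and 6.52% higher. Among those of smallest p in the 2-group fit were Rpl41 (-0.54 ± 0.06), Rpl37a (-0.55 ± 0.07) and Rpl38 (-0.52 ± 0.07), with edgeR adjusted p from 0.000866 to 0.00117. In the 8-group fit these 3 had edgeR adjusted p from 0.112 to 0.170. In the 2-group fit the spread is estimated from these 7 libraries, and the SD of the share in the 2 groups, 0.0546 and 0.0385 percentage points, was below that of every other group. Fibroblast markers rose for 3 of 11 and macrophage markers for 4 of 10 in the same comparison, and their part in it was not tested. In wild-type males the median was -0.19 and 0 genes were called, against 0.34% of all tested genes, with 5 at an unadjusted p under 0.05 and 0 in DESeq2. Averaged over sex and genotype, the diet comparison called 0 of 86, against 0.815% of all genes, with a median of 0.01, 4 genes at an unadjusted p under 0.05 and 0 in DESeq2.

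Loss of MuRF1 left the ribosomal protein genes without a called change on average. The genotype comparison averaged over sex and diet called 0 of 86 genes in edgeR and in DESeq2, against 4.46% of all tested genes, with 1 gene (Rpl3) at an unadjusted p under 0.05 and a median of 0.08. By stratum, 0 genes were called in males on high fat (0.276% of all genes called, median 0.01), in females on chow (0.113%, median -0.04) and in females on high fat (0.0709%, median 0.13), by edgeR and by DESeq2. At an unadjusted p under 0.05 there were 0, 1 and 0 genes. The median in females on high fat was -0.19 without female knockout high fat 2. The interactions of genotype with diet and with sex called 0 genes as well, against 0.106% and 0.0354% of all genes, with 0 and 1 at an unadjusted p under 0.05 and 0 in DESeq2.

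In males on chow the knockouts showed 1 called gene, Rpl3, which was lower at -0.39 ± 0.11 (edgeR adjusted p = 0.0370), where 5.0% of all tested genes were lower and 1.79% higher. Rpl3 lay at 43.0, 56.3, 47.5 and 48.2 CPM in wild types and at 37.97, 30.3, 35.9 and 44.9 CPM in knockouts, so that 1 knockout lay above the lowest wild type. The median of the 86 was 0.23 with 83 above 0, and Rpl3l had 0.32 ± 0.12 (edgeR adjusted p = 0.0945). The call on Rpl3 was lost without male wild type chow 2 or 3 or male knockout chow 1, 2 or 3 (edgeR adjusted p from 0.0751 to 0.197, with 0.00729 to 0.197 over all alternatives). In this comparison fibroblast markers fell for 10 of 11 (summed 1369 to 2117 CPM in wild types, 445 to 1436 in knockouts), macrophage markers for 7 of 10 (104 to 192 CPM, 37.8 to 121) and endothelial markers for 4 of 7. Their part in the Rpl3 value was not tested.

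Between the sexes, averaged over genotype and diet, 2 genes were higher in females and 2 lower, where 16.5% of all tested genes were higher and 14.7% lower. Rpl3 was higher in females at 0.36 ± 0.06 (edgeR adjusted p = 1.66e-05), and Rplp0 at 0.17 ± 0.06 (edgeR adjusted p = 0.0429). Rpl22l1, the paralog of Rpl22, was lower at -0.44 ± 0.13 (edgeR adjusted p = 0.0108) and the retrocopy symbol Rps27rt at -0.32 ± 0.11 (edgeR adjusted p = 0.0288). The call on Rplp0 was lost in 20 of 43 alternatives and that on Rps27rt in 8, while Rpl3 and Rpl22l1 were called in all 43. Without female knockout high fat 2 there were 1 higher and 10 lower, without female wild type high fat 4 there were 1 and 5, and without male knockout high fat 2 there were 1 and 1. For these reduced fits the share of all genes called is not given. Scaled by library totals 11 genes were higher and 1 lower, where 30.7% of all genes were higher and 6.44% lower, with the medians of the 86 and of all genes at 0.12 and 0.13. All 11 fibroblast markers and 9 of 10 macrophage markers were also higher in females, and their part in the Rpl3 value was not tested.

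Beyond the male chow groups, Rpl3 (chromosome 15, 80077791 to 80091868, mm10) lay at 52.6, 50.2, 62.5 and 52.6 CPM in male wild type high fat, 53.5, 46.3 and 44.6 in male knockout high fat, 64.8, 57.0, 71.2 and 66.8 in female wild type chow and 61.5, 60.0, 72.1 and 60.7 in female knockout chow. On high fat it lay at 56.8, 58.1, 59.8 and 51.7 in wild-type females and 51.5, 67.0 and 49.6 in knockout females. Rpl3 was therefore lowest in male knockout chow and highest in females on chow, and the female diets overlapped. Its difference with diet was 0.37 ± 0.12 in knockout males (edgeR adjusted p = 0.0685), -0.20 ± 0.11 in wild-type females and -0.18 ± 0.12 in knockout females, none of them called.

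Rpl3l (chromosome 17, 24727820 to 24736143, mm10) lay at 388, 492, 390 and 509 CPM in wild-type males on chow, 568, 604, 576 and 479 in male knockout chow, 405, 433, 569 and 441 in male wild type high fat and 418, 483 and 472 in male knockout high fat. In females it lay at 379, 410, 342 and 421 in wild type chow, 361, 400, 338 and 367 in knockout chow, 438, 454, 507 and 532 in wild type high fat and 440, 608 and 446 in knockout high fat. All 7 female high-fat libraries lay above all 8 female chow libraries. Rpl3l ranked sixth of the 86 genes per kilobase, at 277 RPKM against 17.0 for Rpl3. The exon length behind these values is 1643 bases for Rpl3l and 3175 for Rpl3, whereas their coding lengths are 1221 and 1209. Part of the gap in RPKM, and of the size of the ratio below, is therefore due to annotated length. Summed over libraries, Rpl3l had 173815 counts and Rpl3 20962.

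The ratio of Rpl3l to Rpl3 per kilobase was 17.7 ± 1.95 in male wild type chow, 29.8 ± 7.34 in male knockout chow, 16.3 ± 1.13 in male wild type high fat and 18.6 ± 3.00 in male knockout high fat (SD, n = 4, 4, 4 and 3). It was 11.7 ± 1.93 in female wild type chow, 11.2 ± 1.60 in female knockout chow, 16.6 ± 2.32 in female wild type high fat and 17.1 ± 0.553 in female knockout high fat (SD, n = 4, 4, 4 and 3). The 8 female chow libraries ran from 9.05 to 13.9 and the 7 female high-fat libraries from 14.9 to 19.9, without overlap. The male knockout chow libraries ran from 20.6 to 38.5, above the 4 wild types on chow, which ended at 20.4. A ratio between these genes is a description, since both genes were named with their values known. Summed muscle fibre markers were 181800 to 193500 CPM in male knockout chow and 161800 to 192000 in male wild type chow. They were 143900 to 177000 in male wild type high fat and 154600 to 158200 in male knockout high fat. In females they were 139800 to 159600 CPM on chow, 162000 to 199300 in wild type high fat and 181100 to 196300 in knockout high fat. The part of these markers in the ratio was not tested.

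**Figure D5:**
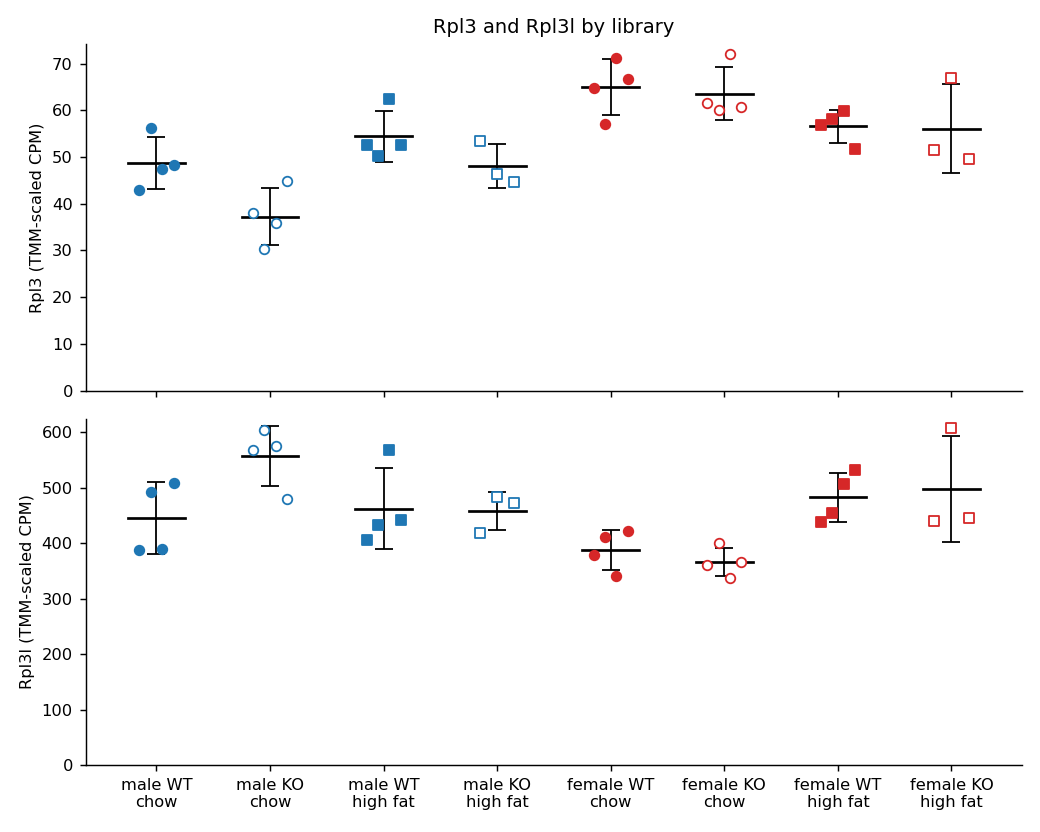
TMM-scaled CPM of Rpl3 (upper panel) and Rpl3l (lower panel) in each library, by group; circles are chow, squares high fat, filled symbols wild type, open symbols knockout, and bars give the mean and SD. Rpl3 is lowest in male knockout chow (30.3 to 44.9) where Rpl3l lies at 479 to 604.

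Genes with and without the start-site run had similar medians in the sex-by-diet comparison. The median difference was 0.56 in the 14 genes with the run and 0.53 in the 48 without it, and 0.53 in the 24 genes with CCGGAAG against 0.55 in the 38 without. Of the 14 genes 11 were called higher, and of the 48 genes 42. Across the 86 genes the difference correlated with GC content at r = 0.401 and with log2 exon length at r = -0.28, as a description over genes that share their libraries.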

How the data were processed

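Poly(A) RNA from 31 gastrocnemius muscles was sequenced as stranded paired reads, per the labels' protocols. The deposited files hold raw counts per Ensembl gene, made by the authors with featureCounts on mm10 after bcl2fastq, per the submitters' processing notes. Which aligner, which annotation and which strand setting were used is not given in the sources used. Reads of overlapping antisense genes therefore could not be told apart. Symbols, exon lengths and GC content came from GENCODE M21, and promoters from RefSeq, for the 62 members it held. Exon length is the union of the exons of all transcripts of a gene, and GC content is that of its longest transcript.

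Genes with at least 10 counts in at least 3 of the 31 libraries (14112) were tested over the 30 grouped libraries with edgeR 4.0.16 (R 4.3.3, robust glmQLFit and glmQLFTest, TMM scaling), with 1 coefficient per group. All 14 comparisons come from that fit, with Benjamini-Hochberg adjustment at 0.05 within each, and SE is the fold change divided by the root of F. The variation between animals was 14.2%. Replicates were different animals by their numbers, and 0 of 42 within-group pairs agreed within sampling noise (lowest chi-square per gene 4.67). RPKM is the TMM-scaled CPM per kilobase of exon. DESeq2 1.42.0 and other scalings, filters, offsets and library sets were tried as alternatives. Coding sequences were compared with blastn 2.17.0. The steps were tested on simulated data. In each contrast up to 10 called members of smallest p are named, with paralog pairs, stalk genes, Rpsa, Rps6, Rps19bp1 and the extremes of level and spread. The members and lists were chosen with earlier results of these data known. One gene of the lists is not reported here.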

Additional observations from a re-analysis of the deposited data

Results flagged for a closer look

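Over 10 of the genes and the summed share, 66 sets of 4 animals were examined, and in 4 of them 1 animal stood apart from the other 3, where chance gives about 1 in 20. These were Rpl29 in male wild type high fat 3 (133 CPM, the others 86.4 to 91.9), Rplp0 in the same animal (804 CPM, the others 621 to 622), Rpl22l1 in female wild type chow 4 (71.1 CPM, the others 38.7 to 43.3) and Rpl3 in female knockout chow 3 (72.1 CPM, the others 60.0 to 61.5). The diet effect differed between the sexes, by the test of that difference, for 73 of the 86 genes. Over all tested genes 22.2% were higher and 22.8% lower in that test. With GC and length offsets 51 of the 86 were higher and 1 lower, where 23.5% of all genes were higher and 15.1% lower. Those named of the 73 are Rplp2 (0.95), Rpl28 (0.92), Rpl29 (0.81), Rps19bp1 (1.00), Rpl37 (0.77), Rpl18 (0.78), Rpl23a (0.56), Rplp0 (0.60), Rps28 (0.88), Rplp1 (0.74) and, in the opposite direction, Rpl3 (-0.45), each as the female minus male difference of the log2 diet effects.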

How the results depend on the processing

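Counts below are of the 86 genes called in either direction. The share of all tested genes called is given, here or above, for only part of these fits. A count without that share shows how the calls depend on the setting, and not whether the 86 differ from all genes. In the sex-by-diet comparison the 73 calls became 46 on library totals and 56 to 79 with 1 library left out. Of all tested genes 3135 were higher and 3224 lower there, 1625 and 4706 on library totals, and 3321 and 2125 with GC and length offsets. For diet in knockout females (22 calls) there were 5 on library totals, 11 with no count filter, 9 with only the groups compared, 55 with all 31 libraries grouped by title, 2 with GC and length offsets, 11 with those offsets and the replicate block, 0 without the 3 libraries high in Krt10, and 0 to 49 with 1 library left out. For diet in wild-type females (9 calls) there were 5 with RLE size factors, 5 on library totals, 4 with no count filter, 0 in the 26 libraries with 1 group by both labels, 0 by title, 2 with offsets, 3 with offsets and the replicate block, 0 without the Krt10 libraries, 3 without the 3 wild-type libraries with Trim63 under 150 CPM, and 0 to 17 with 1 left out. For diet in knockout males (0 calls) there were 6 in DESeq2, 1 on library totals, 1 with TMM computed without the 86 and mitochondrial genes, 78 with only the groups compared, 8 by title, 11 with offsets, 10 with offsets and the replicate block, and 0 to 18 with 1 left out. For diet in wild-type males (0 calls) there was 1 with offsets and 1 with offsets and the replicate block. For genotype in males on chow (1 call) there were 2 on library totals, 0 with no count filter, 0 with only the groups compared, 0 by title, 2 with offsets, 15 with offsets and the replicate block, 0 without the low-Trim63 wild types, and 0 to 2 with 1 left out. For the genotype average (0 calls) there were 11 with offsets and the replicate block and 0 to 1 with 1 left out. For the sex average (4 calls) there were 12 on library totals, 7 with offsets, 9 with offsets and the replicate block, 9 without the low-Trim63 wild types, and 2 to 11 with 1 left out. The other comparisons kept 0 calls throughout. The value for Rpl8, diet in female wild type, turned to -0.02069 with offsets and to -0.02429 with offsets and the replicate block. The fit by title puts 4 libraries in groups of the other genotype than their Trim63 level shows. It also holds the library without a group, titled knockout, with 107 CPM of Trim63. Its counts are therefore not those of an equal alternative. The cause of these shifts was not tested.

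Animals with the same replicate number did not deviate together (median r = 0.0543 over 99 pairs with the same number and -0.00488 over 294 other pairs), so the number was not taken as a pairing. With the replicate block, 73 genes were called for sex by diet, 32 for diet in knockout females, 10 for diet in wild-type females, 5 for the sex average and 1 for genotype in males on chow, with 0 in the other comparisons. The fits without the Krt10 libraries, without the low-Trim63 wild types, and with offsets plus the replicate block were chosen after seeing the data. On library totals the median of all tested genes moved to -0.19 for genotype in males on chow, 0.18 for diet in knockout males, -0.16 for diet in knockout females and 0.11 for genotype by sex. The median of the 86 then changed sign for the diet average, the sex average, genotype in males on high fat, genotype in females on chow, genotype by diet and genotype by sex, which were all within 0.09 of 0. A count of 0 in a library allows up to 3 counts, which is 0.321 CPM or less in each library.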

Other observations

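The library whose animal is in no title, titled male knockout high fat replicate 1, had 107 CPM of Trim63 and 51.7 CPM of Ddx3y. The 86 genes took 1.28% of its counts, and its ratio of Rpl3l to Rpl3 per kilobase was 17.8.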
